A study of Arabidopsis thaliana with 6 samples.

Results

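In expanding rosette leaves of Arabidopsis thaliana, transcripts of 34 genes named for the microtubule cytoskeleton were compared between sto2 null mutants and wild-type plants. They were taken from array probe sets that pair with 1 gene and whose symbol is IQD or TRM with a number, or names a MAP65, MAP70, WDL, TUA or TUB gene. Of 22746 probe sets on the array, 13513 paired with 1 gene, standing for 13356 genes, and 34 of those genes matched. Each of the 34 had 1 such probe set, so no choice among probe sets was needed. They comprise 11 IQD genes, 14 TRM genes, 2 alpha-tubulin genes (TUA), 5 beta-tubulin genes (TUB), the MAP65 gene ATMAP65-6 and TRM82. No MAP70 or WDL gene was matched, and further members of these families may lie among the 8730 probe sets with no gene in the table, which were not analysed here. A probe set shared by TUA3 and TUA5 was left out because it pairs with more than 1 gene.

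The letters TRM did not mark 1 family. RefSeq describes 14 of the 15 genes as TON1 Recruiting Motif genes, and TRM82 (AT1G03110) as a tRNA modification gene. TRM82 is therefore kept apart in every count by family.

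The genotypes were sto2 null mutants, with 3 arrays, and Col-0 plants as wild type, with 3 arrays. Both were grown in soil to an age of 3 weeks and received no treatment. Leaves 3 to 6 were harvested, and each array stands for total RNA extracted from 1 sample, with biotin as the label. The design text calls the samples biological replicates and gives the search for candidate downstream targets of STO2 as the purpose. The labels do not say which locus STO2 is, and its own transcript was not analysed here. In whole leaves, fewer cells of a type and less RNA per cell cannot be told apart.

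Microtubules are hollow polymers of alpha- and beta-tubulin pairs. In growing leaf cells they form arrays under the plasma membrane that guide cellulose deposition, and so the direction in which the cell expands. IQD proteins bind calmodulin through IQ motifs, and many of them decorate microtubules, which places them between calcium signals and the cytoskeleton. TRM proteins share short motifs with which some of them recruit TON1, a protein needed to organise cortical arrays and the band of microtubules that marks the division plane. Many MAP65 proteins crosslink neighbouring microtubules into bundles.

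The arrays were read as linear signal intensity in arbitrary units, with medians between 37 and 38.5. A reading was taken as above background when it exceeded the highest of 27 bacterial control probe sets on the same array, which ranged from 9.5 to 18.4. On 6 of 6 arrays this was so for 23 of the 34 members (67.6%), beside 62.2% of all 22746 probe sets. Another 5 members were above the controls on some arrays and 6 on no array. Probe sets differ in how brightly they report a transcript, so signals of different genes are given as readings and not as an order of transcript number. With 3 arrays a genotype, precision is limited by that number and by the spread of each probe set between arrays.

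Markers matched the labelled tissue. The 6 measured mesophyll markers, which include LHCB4.1 and LHCB4.2 of the light-harvesting antenna, summed to between 23971 and 24954 signal units per sto2 array and between 23856 and 25744 per wild-type array. Of the markers of other tissues, CLV3 and UFO of the shoot apex and AT59 and MGH3 of pollen were above the controls on 0 of 6 arrays, and the root markers PYK10 and EXPA7 on 1 array each. The 3 Aurora kinase genes, which act in dividing cells, summed to between 93.4 and 111 on sto2 arrays and between 88.2 and 125 on wild-type arrays. None of the measured markers of mesophyll, root, shoot apex, pollen, phloem, the stomatal lineage, trichomes or dividing cells passed the threshold. The older actin control probe sets differed in their 3' over 5' signal, a measure of RNA quality. Its log2 lay between 1.82 and 2.32 on sto2 arrays and between 2.52 and 2.64 on wild-type arrays. Its part in the differences below was not tested.

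**Figure D1:**
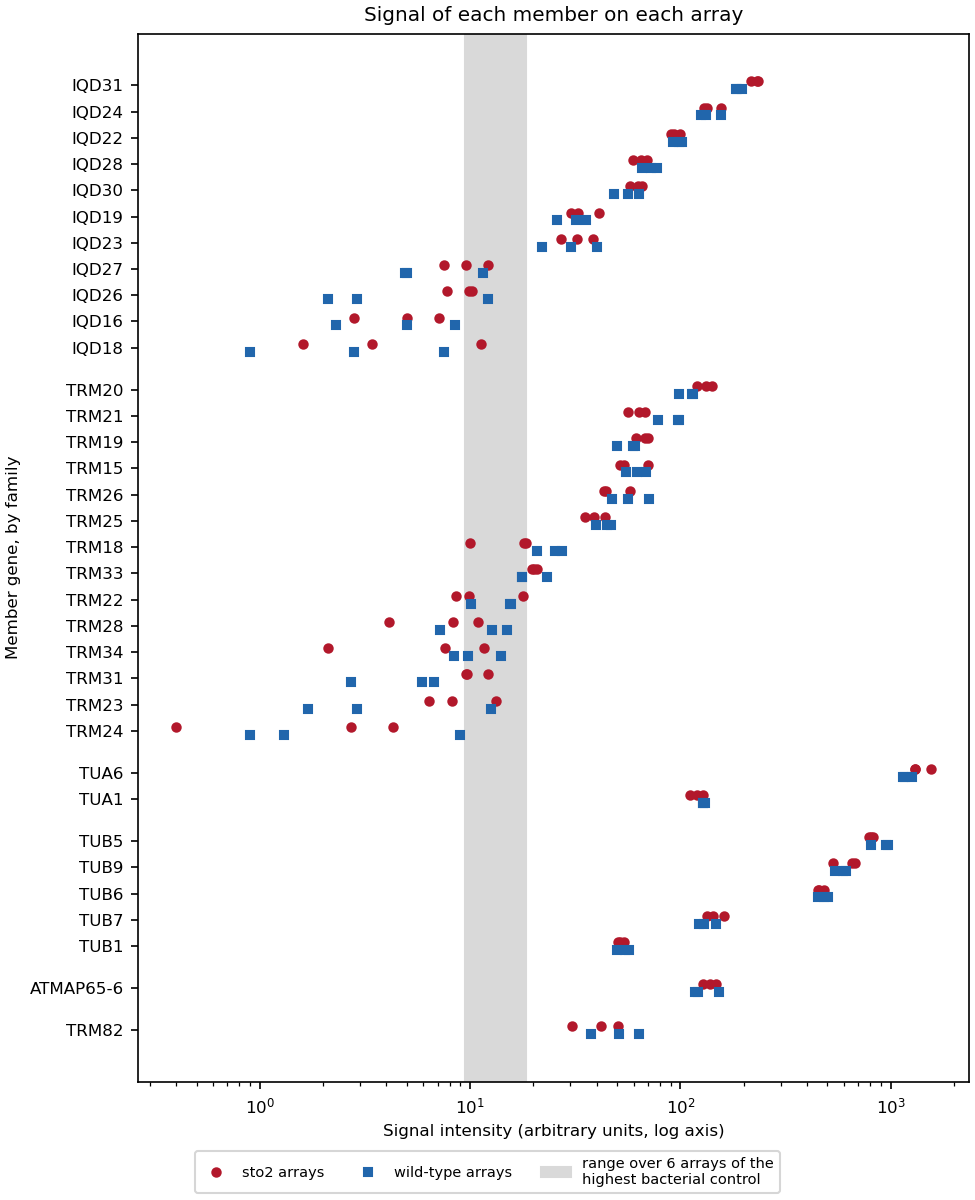
Signal intensity of each of the 34 members on each of 6 arrays, on a log axis, grouped by family, with sto2 arrays as circles above wild-type arrays as squares. The grey band spans 9.5 to 18.4, the highest bacterial control reading over the arrays; the 7 tubulin genes lie to its right on every array, while 4 IQD and 8 TRM genes reach into it or lie left of it.

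Tubulin genes gave bright readings. TUA6 (AT4G14960), an alpha-tubulin gene, had signals of 1312.4, 1300.3 and 1555.8 on sto2 arrays 1, 2 and 3, against 1262.4, 1174.2 and 1140.8 on wild-type arrays 1, 2 and 3. Its mean over the 6 arrays exceeded that of 98.3% of probe sets. All sto2 readings of TUA6 lay above all wild-type readings, with sto2 array 3 standing highest.

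The other alpha-tubulin gene, TUA1 (AT1G64740), is known for expression in pollen. It had signals of 111.4, 128.6 and 119.9 in sto2 leaves, against 131, 128.3 and 128 in wild-type leaves. The groups overlapped, since sto2 array 2 lay among the wild-type readings. TUA1 was above the controls on 6 of 6 arrays, while the pollen markers AT59 and MGH3 were above them on none.

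Among the beta-tubulin genes, TUB5 (AT1G20010) had signals of 802.2, 790.5 and 823.5 in sto2, against 954.6, 807.2 and 971.7 in wild type. Wild-type array 2 lay within the sto2 readings, so the groups overlapped. TUB9 (AT4G20890), best known from pollen, averaged 621 ± 77.9 in sto2 and 581 ± 36.2 in wild type (mean ± SD, n = 3 arrays each, as throughout). TUB6 (AT5G12250) averaged 462 ± 15.6 in sto2 and 477 ± 25.5 in wild type. TUB7 (AT2G29550) averaged 146 ± 14.0 in sto2 and 133 ± 13.0 in wild type. TUB1 (AT1G75780) had the dimmest readings of the family, at 50.4, 51.4 and 53.7 in sto2 against 49.7, 57 and 54.8 in wild type. The means of TUB5, TUB9 and TUB6 exceeded those of 96.9%, 95.4% and 93.9% of probe sets, and that of TUB1 exceeded 56.9%.

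IQD genes fell into 2 classes of signal. IQD31, IQD24, IQD22, IQD28, IQD30, IQD19 and IQD23 were above the controls on every array, with means over 6 arrays from 31.7 to 207.5. IQD27, IQD26, IQD16 and IQD18 were above them on no array, with means from 4.58 to 8.45. IQD16 acts with the severing protein katanin, and IQD18 belongs to the IQD proteins that bind the microtubule regulator SPIRAL2. These 4 genes were not well above background in either genotype.

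TRM genes covered the range from background to moderate signal. TRM20, TRM21, TRM19, TRM15, TRM26, TRM25 and TRM18 were above the controls on every array, with means over 6 arrays from 19.98 to 120.0. TRM33 was above them on 5 arrays, TRM22 on 4, and TRM28, TRM34 and TRM31 on 1 each. TRM23 and TRM24 were above them on none.

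ATMAP65-6 (AT2G01910), a gene of the MAP65 family, had signals of 137.8, 147 and 128.4 in sto2 leaves, against 117, 152.9 and 120.8 in wild-type leaves. The sto2 readings lay within the wild-type range. TRM82 had signals of 50.4, 41.9 and 30.6 in sto2 and 63.3, 51.1 and 37.5 in wild type, with groups that overlapped.

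Turning to the comparison, log2(signal + 16) values were fitted with limma. It fits a linear model to each probe set and moderates the variances across probe sets. The p-values were adjusted by Benjamini-Hochberg over all 22746 probe sets. None of the 34 members passed an adjusted p of 0.05, while 29 probe sets of the array did (0.127%), 0.0572% of all probe sets higher and 0.0703% lower in sto2. At an unadjusted p under 0.05 there were 5 members, beside 14.1% of all probe sets. Readings of the genotypes did not overlap in 7 of 34 members (20.6%), beside 19.2% of all probe sets, so the members' share lay near that of the array. Means were higher in sto2 for 17 members and lower for 17, a split that includes 6 members (IQD24, IQD23, IQD16, IQD18, TRM33 and TRM24) whose direction turned when 1 array was left out. Leaving out 1 array moved the log2 difference by over 1.5 times in 29 of the 34. The median log2 difference over the 34 was 0.0035, against -0.0081 over all probe sets.

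The 95% intervals show what size of difference the arrays leave room for. For the 23 members above the controls on every array they lay between -0.70 and 0.45 on the log2(signal + 16) scale. In 19 of these 23 the whole interval lay within 0.5 of 0. For dim genes this scale shrinks differences, so their intervals set no such limit on the transcript. This also holds for the dimmer genes among the 23. TRM18 had a log2 difference of -0.37 with 16 added to the signal and of -0.66 with 1 added.

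**Figure D2:**
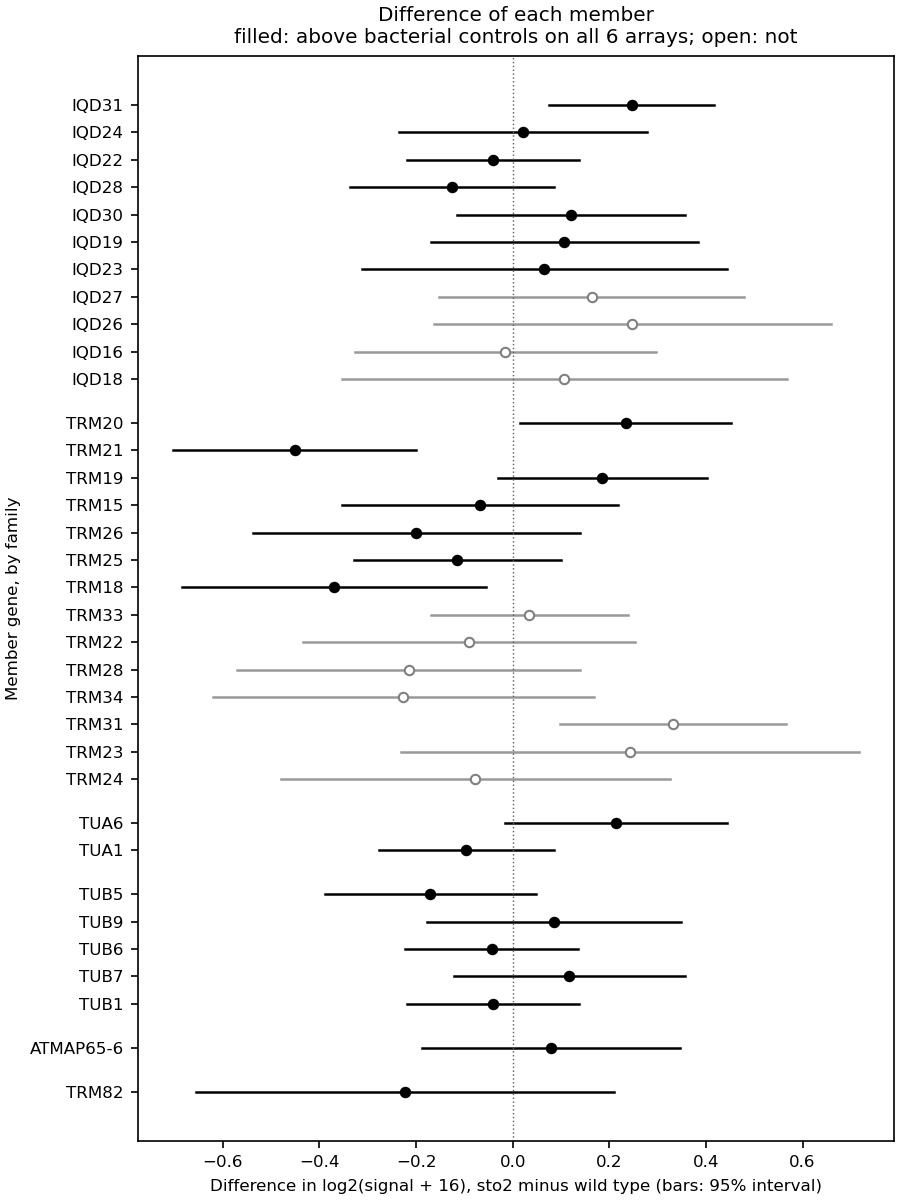
Difference in log2(signal + 16), sto2 minus wild type, for each of the 34 members with its 95% interval from limma (3 arrays per genotype). Filled points were above the bacterial controls on all 6 arrays; the intervals of TRM21, IQD31, TRM31, TRM18 and TRM20 leave out 0, and none of these 5 passed after adjustment over all probe sets.

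TRM21 and TRM18 had the largest differences among members above the controls on every array, and both were lower in sto2. Of 14, 5 had higher and 9 lower means in sto2, and the median log2 difference was -0.08. Readings of the genotypes did not overlap in 5 of the 14, 3 of them higher and 2 lower in sto2. Over all probe sets, 9.01% were higher and 10.2% lower without overlap.

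TRM21 (AT5G43880) had the smallest p-value of the members. Its signals were 63.8, 56.2 and 67.6 in sto2 leaves, against 97.2, 99 and 78.6 in wild-type leaves. The highest sto2 reading lay below the lowest wild-type reading. The means were 62.5 ± 5.80 in sto2 and 91.6 ± 11.3 in wild type, a ratio of 0.683. The log2 difference was -0.45 ± 0.11 (SE), with a 95% interval from -0.70 to -0.20, and the limma adjusted p was 0.154.

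TRM18 (AT2G39435) was the other TRM gene with lower readings on every sto2 array. It had signals of 18.5, 10 and 18 in sto2, against 27.4, 20.7 and 25.3 in wild type, and sto2 array 2 read only just above its control limit of 9.5. The log2 difference was -0.37 ± 0.13, with a limma adjusted p of 0.291. Without sto2 array 2 it was -0.24. The size depended on the constant added to the signal: with 1 or 64 in place of 16, the log2 difference was -0.66 or -0.16. The ratio of the means was 0.634.

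TRM20 (AT4G28760) and TRM19 (AT3G53540) differed in the opposite direction. TRM20 had signals of 119.7, 140.8 and 132.5 in sto2, against 98.9, 113 and 115 in wild type (log2 difference 0.23 ± 0.09, limma adjusted p = 0.327). TRM19 had signals of 61.5, 68 and 70 in sto2, against 59.3, 49.8 and 60.8 in wild type. Its genotypes were separated by less than 1 signal unit, and its log2 difference was 0.19 ± 0.09 (limma adjusted p = 0.419), which was 0.12 without wild-type array 2.

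TRM31 (AT5G58630) had signals of 9.7, 12.2 and 9.6 in sto2, against 2.7, 6.7 and 5.9 in wild type. Only sto2 array 2 exceeded its bacterial controls, so the separation lies within readings at background and no fold is given. The log2 difference was 0.33 ± 0.10 (limma adjusted p = 0.223). The remaining TRM genes overlapped between genotypes. TRM15, TRM26 and TRM25 averaged 58.7 ± 10.3, 48.3 ± 8.13 and 39.3 ± 4.28 in sto2, against 62.0 ± 6.55, 58.1 ± 11.7 and 43.8 ± 3.68 in wild type. TRM33 averaged 20.2 ± 0.61 in sto2 and 19.5 ± 3.15 in wild type, and TRM22 averaged 12.1 ± 4.98 in sto2 and 13.7 ± 3.15 in wild type.

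Readings near background spread in both directions. TRM28 and TRM34 were above the controls on 0 sto2 arrays and on 1 wild-type array each, with log2 differences of -0.22 and -0.23. TRM24 had the dimmest readings of all members, at 2.7, 4.3 and 0.4 in sto2 against 9, 0.9 and 1.3 in wild type. Its log2 difference of -0.08 turned to 0.11 without wild-type array 1. TRM23 read 6.4, 8.2 and 13.3 in sto2 and 12.6, 2.9 and 1.7 in wild type, at or below the controls throughout.

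**Figure D3:**
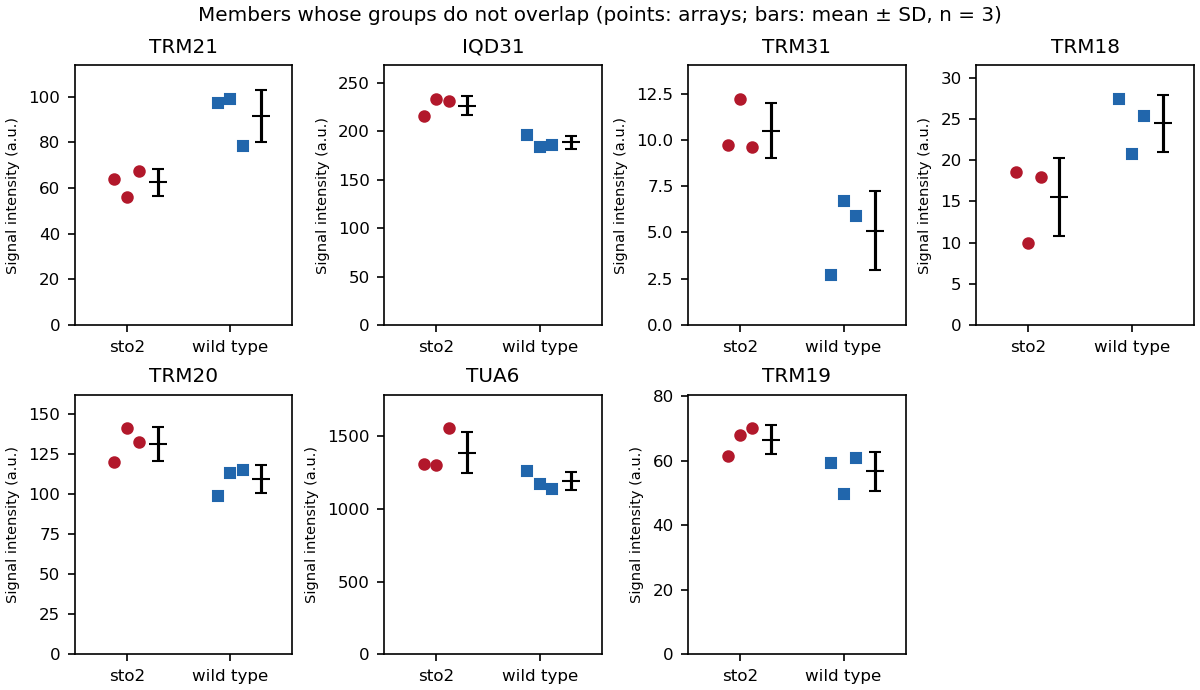
Signal intensity on each array, sto2 left and wild type right, for the 7 members whose genotypes do not overlap, with the mean and SD of 3 arrays beside the points; axes start at 0. TRM21 and TRM18 lie lower in sto2, and IQD31, TRM31, TRM20, TUA6 and TRM19 lie higher.

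Of the 11 IQD genes, 8 had higher and 3 lower means in sto2. The median log2 difference was 0.11, and the members ranged from -0.13 to 0.25. Without the dimmest 50% of probe sets, which leaves fewer IQD genes, the median was 0.022, and without wild-type array 2 it was 0.066. In 1 of the 11, IQD31, the genotypes did not overlap. The lean toward higher means includes 3 of the 4 genes at background, and among the 7 genes above the controls the median was 0.07.

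IQD31 (AT1G74690), the IQD gene with the brightest readings, had signals of 215.7, 233.2 and 230.9 in sto2 leaves, against 195.7, 184.1 and 185.4 in wild-type leaves. Readings within each genotype lay close together, and sto2 array 1 read lowest of its group. The means were 227 ± 9.51 in sto2 and 188 ± 6.36 in wild type, a ratio of 1.203. The log2 difference was 0.25 ± 0.07, with a 95% interval from 0.08 to 0.42 and a limma adjusted p of 0.217.

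The other 6 IQD genes above the controls overlapped between genotypes. IQD24 averaged 140 ± 14.4 in sto2 and 138 ± 15.7 in wild type. IQD22 averaged 94.4 ± 5.18 in sto2 and 97.5 ± 4.42 in wild type, and IQD28 averaged 64.6 ± 5.03 in sto2 and 72.0 ± 6.23 in wild type. IQD30 averaged 62.2 ± 4.095 in sto2 and 56.1 ± 7.55 in wild type. IQD19 averaged 34.7 ± 5.61 in sto2 and 31.0 ± 4.86 in wild type, and IQD23 averaged 32.6 ± 5.61 in sto2 and 30.8 ± 9.11 in wild type. For all 7 IQD genes above the controls the 95% intervals lay within -0.34 and 0.44.

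At background, IQD18 read 3.4, 1.6 and 11.3 in sto2 against 7.5, 0.9 and 2.8 in wild type. Its log2 difference of 0.11 turned to -0.081 without sto2 array 3. IQD26, IQD27 and IQD16 averaged 9.30, 9.77 and 4.97 in sto2 against 5.73, 7.13 and 5.27 in wild type, with groups that overlapped.

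Readings of most tubulin genes were close together within each genotype, while those of TUB9 ran from 531.9 to 678 in sto2. The median SD within genotypes on the log2(signal + 16) scale was 0.10 for the 7 tubulin genes, 0.15 for IQD genes, 0.17 for TRM genes and 0.14 over all probe sets. All 7 tubulin genes were above the controls on every array, while the IQD and TRM values include genes at background. Among those above the controls on every array, the median SD was 0.12 for IQD genes, 0.13 for TRM genes and 0.13 over all such probe sets. Spread among probe sets as bright as the tubulin genes was not examined. Of the 7 tubulin genes, 3 had higher and 4 lower means in sto2, and the median log2 difference was -0.04. The median of the 5 beta-tubulin genes was also -0.04, and -0.0081 and -0.0086 without wild-type arrays 2 and 3 in turn. None of the 7 had an unadjusted p under 0.05, and their 95% intervals lay between -0.39 and 0.44.

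TUA6 was the 1 tubulin gene whose genotypes did not overlap. Its means were 1390 ± 144 in sto2 and 1192 ± 62.8 in wild type (log2 difference 0.21 ± 0.10, limma adjusted p = 0.383), and without sto2 array 3 the difference was 0.13. TUB5 had the largest difference in the other direction, with means of 805 ± 16.7 in sto2 and 911 ± 90.4 in wild type (log2 difference -0.17 ± 0.09, limma adjusted p = 0.460). For TUA1, TUB1 and TUB6 the log2 differences were -0.10, -0.04 and -0.04, and for TUB7 and TUB9 they were 0.12 and 0.09. With 1 array left out, TUA1 ran from -0.14 (without sto2 array 2) to -0.050 (without sto2 array 1) and TUB1 from -0.084 (without wild-type array 1) to -0.0081 (without wild-type array 2). TUB6 ran from -0.083 to -0.0086 without wild-type arrays 2 and 3 in turn. TUB7 ran from 0.051 (without sto2 array 2) to 0.18 (without wild-type array 3), and TUB9 from 0.020 to 0.19 without sto2 arrays 2 and 1 in turn. The probe set shared by TUA3 and TUA5 read 1566 ± 93.2 in sto2 and 1492 ± 172 in wild type, a log2 difference of 0.07 ± 0.10. ATMAP65-6 differed by 0.08 ± 0.11 and TRM82 by -0.22 ± 0.18, with limma adjusted p-values of 0.823 and 0.645. With 1 array left out, ATMAP65-6 ran from 0.015 to 0.19 (without wild-type arrays 1 and 2 in turn), and TRM82 from -0.37 (without wild-type array 3) to -0.085 (without sto2 array 3).

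**Figure D4:**
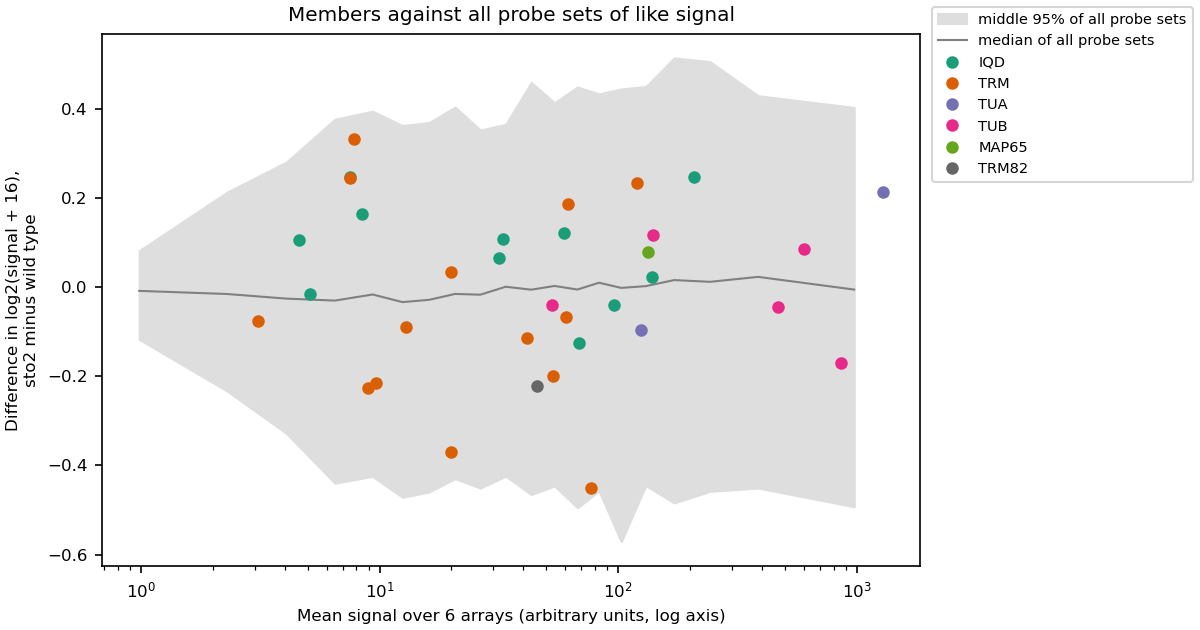
Difference in log2(signal + 16), sto2 minus wild type, against mean signal over 6 arrays on a log axis, for the 34 members coloured by family. The grey area holds the middle 95% of all probe sets in each of 20 classes of signal, drawn at the median signal of each class; all 34 members lie inside the range of their own class.

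Other genes of the pathway were taken from 7 lists of cortical microtubule regulators, nucleation factors, kinesins, tubulin folding cofactors, calmodulins, actin and its partners, and cellulose synthesis. Only 12 of their 148 genes had a named probe set, and 0 passed the limma threshold in either direction. Means were higher in sto2 for 4 of the 12 and lower for 8. No nucleation factor or calmodulin of these lists was matched to a named probe set.

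Of 6 measured cortical regulators, 2 had higher and 4 lower means in sto2. TON1B, a partner of TRM proteins, had signals of 47.1, 61.5 and 61.7 in sto2, against 53.9, 46.6 and 54.1 in wild type, with overlapping groups (log2 difference 0.10 ± 0.11). SPR1, a plus-end protein that keeps organs from twisting, averaged 571 ± 3.27 in sto2 and 544 ± 83.8 in wild type. Its wild-type spread came from array 1, at 449.6 against 572.7 and 609.7. Among the relatives of SPR1, SP1L2 read 15.3, 5.9 and 4.1 in sto2 against 23.9, 20.6 and 13.2 in wild type and was above the controls on 3 of 6 arrays. SP1L3 had signals of 506.4, 511.9 and 489.1 in sto2, against 547.7, 526.6 and 565.9 in wild type, with groups that did not overlap. Their limma adjusted p-values were 0.289 and 0.502.

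The folding cofactor gene POR (PORCINO, AT4G39920), which helps assemble tubulin pairs, had signals of 41.1, 43.5 and 44.5 in sto2, against 52.1, 55.4 and 48.8 in wild type. The groups did not overlap, and the log2 difference was -0.21 ± 0.07 (limma adjusted p = 0.291). The cofactor gene PFI had a log2 difference of -0.02 ± 0.09. KINESIN-12B, a motor of the division apparatus, was above the controls on 1 of 6 arrays.

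On the actin side, ACT11 (AT3G12110) had signals of 38.9, 36.1 and 32.8 in sto2, against 63.7, 51.1 and 52.7 in wild type. Every sto2 reading lay below every wild-type reading (log2 difference -0.47 ± 0.10, limma adjusted p = 0.123). ACT12 was above the controls on 0 of 6 arrays. COB, which encodes a cell-surface protein needed for oriented cellulose deposition, had signals of 993.6, 987.6 and 981.7 in sto2, against 1212.4, 1079.9 and 1101.1 in wild type. The groups did not overlap, with a log2 difference of -0.19 ± 0.08 (limma adjusted p = 0.328). SP1L3, POR, ACT11 and COB were thus lower in sto2 without overlap, as were 10.2% of all probe sets.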

How the data were processed

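The data come from 6 single-colour Affymetrix arrays. The deposited values are linear signal intensity values; per the labels' protocols a service provider hybridised and scanned the arrays, and how probes were summarised is not given in the sources used. Every array had a 2% trimmed mean of 100.0, and array medians differed by 0.06 on the log2 scale, so no further normalization was applied. There were no detection calls, so bacterial controls set the background. Of all probe sets, 64 controls were left out. Genes came from the platform's gene table and names from RefSeq (assembly TAIR10.1); the array's build is not stated, and no coordinates are printed.

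The linear models of limma 3.58.1 (R 4.3.3; lmFit, then eBayes; 2-sided) were fitted to log2(signal + 16), with p-values adjusted by Benjamini-Hochberg over 22746 probe sets. The procedure was tested on simulated data. Members and lists were chosen with earlier results of these data known. All 6 values of a gene were printed for members that passed, members with separated groups (up to 8 a direction), and the brightest and dimmest member of each family; of other lists, up to 2 genes with the smallest p, and for cell markers mostly sums. TON1B, SPR1 and TRM23 were picked after values were seen. Alternatives were other normalizations, filters, priors, array weights, pseudocounts, a replicate block and leaving out each array.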

Additional observations from a re-analysis of the deposited data

How the results depend on the processing

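The count of members that passed was 0 under all 17 alternatives run, with a smallest limma adjusted p of 0.0713 (TRM21, without the dimmest 50% of probe sets). Averaging a gene's probe sets changed nothing, since each member has 1. The array-wide count of 29 was 147 and 227 without the dimmest 30% and 50% of probe sets, 72 with an intensity trend and robust prior, 70 with array weights and 83 and 17 with pseudocounts of 64 and 1. It was 6 with only probe sets of 1 gene, and between 5 and 22 when 1 array was left out. With the replicate number as a block it was 2, and the members' count stayed 0. Deviations of same-numbered arrays correlated at -0.23, -0.14 and 0.07, so the numbers were not taken to pair samples. The TRM median of -0.08 was -0.18 with a pseudocount of 1, and ran from -0.10 to -0.03 when 1 array was left out. The IQD median of 0.11 was 0.022 without the dimmest 50% of probe sets, 0.034 with a pseudocount of 64 and 0.15 with a pseudocount of 1. With 1 array left out it ran from 0.066 to 0.11, the TUB median from -0.061 to -0.0081 and the TUA median from 0.017 to 0.10. These medians kept their sign under the alternatives run, but the intensity trend, the filter to probe sets of 1 gene and the replicate block cannot move them. The filters by signal and by the controls removed no tubulin gene, so they cannot move the TUB and TUA medians either. Each main median was smaller in size than the SD between replicates of the per-array family median. That SD was 0.096 for TRM, 0.116 for IQD, 0.063 for TUB and 0.067 for TUA. Restricting families to members above the controls, an alternative chosen after seeing the data, gave medians of -0.11 for TRM and 0.07 for IQD. When 1 array was left out, 6 of the 34 members changed direction, of which IQD24 and IQD23 were above the controls on every array and IQD16, IQD18, TRM33 and TRM24 were not. IQD24 ran from -0.052 to 0.10 and IQD23 from -0.076 to 0.21. IQD18 ran from -0.081 (without sto2 replicate 3) to 0.24, and TRM24 from -0.18 to 0.11 (without wild-type replicate 1; 0.0057 without sto2 replicate 3). TRM21 ran from -0.54 to -0.30, and IQD31 from 0.20 to 0.28, over their 16 alternatives. Signals near the bacterial controls limit the differences of the 11 members not above them on every array.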

Other observations

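Some members lie near each other in the genome, as the TAIR10.1 gene table orders them. IQD23 and TRM25 have 10 protein-coding genes between them on chromosome 5, and their log2 differences were 0.07 and -0.11. IQD19 and TUA6 have 25 between them on chromosome 4, with log2 differences of 0.11 and 0.21. The 6 members that no array read above the controls were highest on sto2 array 3 in 3 cases and on wild-type array 1 in 3 cases. Over the 4375 probe sets of that kind, these arrays read highest in 14.5% and 21.4%.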
